A study of Homo sapiens with 6 samples.

Results

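Chromosome 19 carries the densest collection of zinc finger genes in the human genome. The genes described here are the protein-coding genes on that chromosome whose symbol is ZNF followed by digits in GENCODE release 29, 240 of the 60671 genes in the count table. Their messenger RNA was measured in A549, HCC827 and H1975, 3 human lines of non-small cell lung cancer, after 48 h of AL-X (10 µg/mL) or DMSO. AL-X is the diterpenoid 9α,11α-dihydroxy-kaurenoic acid, and DMSO served as the control. Each line gave 1 AL-X and 1 DMSO library, so 6 libraries were compared, and the labels give the genotype of each line as WT. EGFR is nevertheless known to be mutant in H1975 and in HCC827.

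A C2H2 zinc finger protein reads DNA through a row of short fingers, each held together by a zinc ion. Many of these proteins also carry a KRAB domain near the amino end, which recruits the corepressor TRIM28 and, through it, the histone methyltransferase SETDB1 and heterochromatin proteins. The family grew by repeated tandem duplication and many members bind and silence retrotransposons. Of the 240 genes, 201 encoded a KRAB motif in the first 200 residues of their longest translated coding sequence and 39 did not. The motif was taken as phenylalanine, any 2 residues and EEW, or as the later LY-V-E stretch of the domain, and degenerate KRAB domains such as that of ZNF473 escape it. The median number of fingers was 12 and the highest 36.

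Total counts ranged from 98139178 to 126840915 per library, so before scaling 1 count per 1e6 counts (CPM) stood for roughly 100 reads. The CPM printed here also carry the scaling factors given below, so the reads per CPM differ between libraries. In A549 with AL-X, 65 counts of ZNF490 were 0.965 CPM. In HCC827 with DMSO, 215 counts of ZNF491 were 1.46 CPM. The epithelial keratins KRT8 and KRT18 were at 363 CPM or more in every library, and the leukocyte genes PTPRC and CD3E were at 0 in all 6. The third leukocyte gene on the list, the lysosomal CD68, was at 16.1 CPM with AL-X and 13.1 with DMSO in A549, 371 and 69.7 in HCC827, and 52.6 and 80.9 in H1975. A549 held little EPCAM (1.47 CPM with AL-X and 2.67 with DMSO), little of the keratin KRT19 (4.62 and 5.00) and almost no NKX2-1. The last epithelial gene on the list, CDH1, was at 15.65 CPM with AL-X and 208.7 with DMSO in A549. HCC827 held 606.1 and 404.5 CPM of CDH1, and H1975 598.6 and 594.5. The mitochondrial share of counts was 0.0201% to 0.656% with AL-X and 6.41% to 6.87% with DMSO. Scaling factors by the trimmed mean of M-values (TMM) ranged from 0.557 (A549 with AL-X) to 1.27 (HCC827 with AL-X). In A549 the median log2 fold of all genes considered was -0.24 with TMM and -1.22 with library totals as the only scaling. In HCC827 it was -0.09 and 0.044, in H1975 -0.07 and -0.47, and all directions given are on the TMM scale.

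The members that neighbour ZNF91 are shown first, since their folds lay apart from those of the other members in HCC827. Members were placed in 16 groups, divided wherever the starts of consecutive members lay over 1000000 bases apart. The group that holds ZNF91 lies at 19668796 to 24129961 (GRCh38), next to the centromere, and has 37 members, 35 of them with the KRAB motif. RefSeq promoters, 250 bases before to 50 bases after the RefSeq start of the gene on GRCh38.p14, were at hand for 209 of the 240 members and for 29 of those 37. Of the 29, 21 held the heptamer CCGGAAG, the core of ETS-factor sites, on the strand opposite to the gene. In 19 of these the heptamer lay 17 to 24 bases before the RefSeq start site. The lines below give 8 of the 21, read 5′ to 3′ on the strand opposite to the gene, with the heptamer in capitals and 8 bases on either side.
ZNF708 (chr19:21329364-21329386, plus strand): cgccaaacCCGGAAGccgccctg
ZNF43 (chr19:21836192-21836214, plus strand): gccacatcCCGGAAGccgccctg
ZNF257 (chr19:22052458-22052480, minus strand): cgccaaacCCGGAAGccaccctg
ZNF730 (chr19:23116999-23117021, minus strand): gccaaatcCCGGAAGccgccctg
ZNF724 (chr19:23250398-23250420, plus strand): gccaaatcCCGGAAGccgccctg
ZNF91 (chr19:23395481-23395503, plus strand): gccacatcCCGGAAGccgccctg
ZNF681 (chr19:23758900-23758922, plus strand): cgccaatcCCGGAAGccgccctg
ZNF254 (chr19:24087161-24087183, minus strand): gccatatcCCGGAAGccgctttg
All 21 windows continued with CC after the heptamer. In ZNF708 the heptamer lies after the RefSeq start, and in the other 7 shown it lies just before the RefSeq start. GENCODE release 29 places some starts further upstream. By its coordinates the windows of ZNF91, ZNF43, ZNF257, ZNF730 and ZNF254 lie inside the gene.

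The heptamer on either strand was present in 93 of the 209 member promoters (44.5%), in 21 of 29 in the ZNF91 group (72.4%) and in 72 of 180 elsewhere (40.0%). Among all 35116 promoters of the same length it was present in 10.3%, among other protein-coding genes of chromosome 19 in 13.8% and among ZNF genes of other chromosomes in 31.5%. Of the other motifs searched on both strands, GGGCGG was in 69.9% of member promoters and 45.0% of all, AAGATGGC in 6.22% and 2.89%, TATAAA in 1.91% and 11.5%, and GCATGCGC in 3.35% and 3.05%. The whole promoter of ZNF91 (chr19:23395422-23395721, minus strand, shown on the gene's strand, so that the heptamer reads CTTCCGG) is set beside that of ZNF57 (chr19:2900678-2900977, plus strand), a member that was higher with AL-X in 3 lines. Capitals mark GGGCGG and CCGGAAG on either strand, and the 2 motifs adjoin in ZNF91.
ZNF91: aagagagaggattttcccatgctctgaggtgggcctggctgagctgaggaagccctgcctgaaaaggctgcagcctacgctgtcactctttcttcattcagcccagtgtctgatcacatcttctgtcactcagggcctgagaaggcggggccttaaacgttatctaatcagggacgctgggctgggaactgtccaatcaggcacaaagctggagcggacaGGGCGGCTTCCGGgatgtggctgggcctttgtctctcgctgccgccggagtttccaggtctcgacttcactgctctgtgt
ZNF57: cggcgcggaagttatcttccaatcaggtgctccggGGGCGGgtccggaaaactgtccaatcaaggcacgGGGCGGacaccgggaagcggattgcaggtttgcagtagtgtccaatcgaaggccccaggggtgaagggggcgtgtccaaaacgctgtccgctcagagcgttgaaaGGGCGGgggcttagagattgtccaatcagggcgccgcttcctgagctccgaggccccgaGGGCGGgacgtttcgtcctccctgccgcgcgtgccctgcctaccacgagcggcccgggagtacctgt
The ZNF91 promoter held 11 CpG dinucleotides and that of ZNF57 held 29. Over the 8 promoters at hand of members higher in 3 lines the median was 29. That of ZNF574 in the same set held only 6, and none of the motifs searched. The promoter of ZNF792, lower with AL-X in 3 lines, held 24 and also GGGCGG. A link between CpG number and the direction of the fold was not tested. The median was 10 in the ZNF91 group, 22 in the other members and 14 over all promoters.

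The lines differed in how much of this family they expressed before any comparison with AL-X. The members together took 0.191% of counts in A549 with AL-X and 0.163% with DMSO, 0.578% and 0.350% in HCC827, and 0.445% and 0.768% in H1975. Per kilobase of merged exons, the median member stood at 0.147 CPM in A549 with AL-X and 0.517 with DMSO, at 2.32 and 1.72 in HCC827, and at 1.55 and 3.24 in H1975. In the DMSO libraries 182 of the 240 members were lowest in A549, and 175 were highest in H1975. The same order over all genes is not given here, so these counts do not set the family apart from other genes. These are bulk RNA values relative to each library, so fewer cells and less RNA per cell cannot be told apart.

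**Figure D1:**
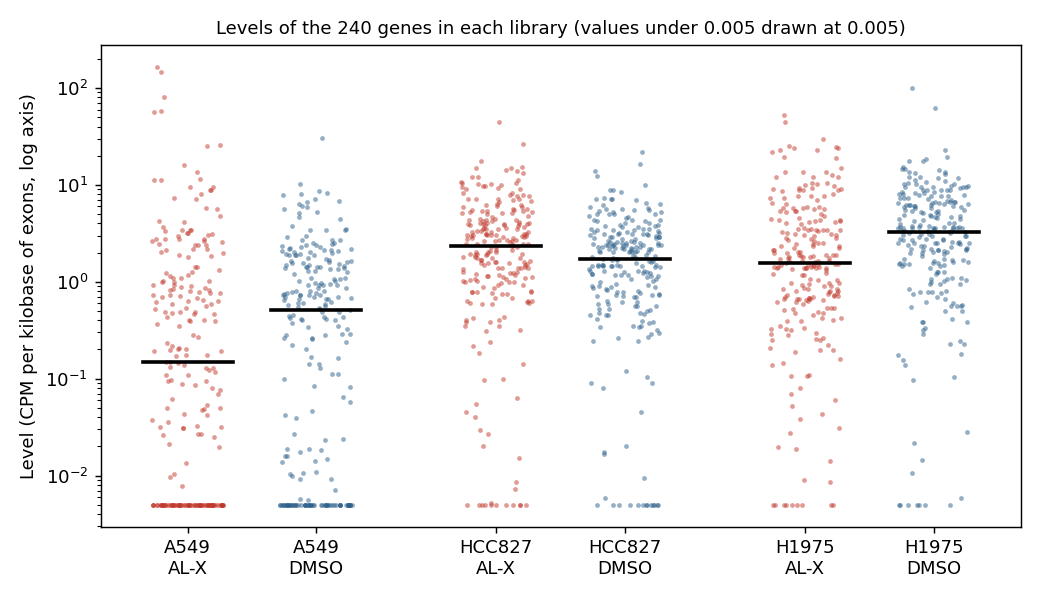
Level of each of the 240 genes (CPM per kilobase of merged exons, log axis) in the 6 libraries, with 1 point per gene and the median as a bar. In A549 the median was 0.147 with AL-X and 0.517 with DMSO, in HCC827 2.32 and 1.72, and in H1975 1.55 and 3.24.

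A549 held little or no RNA of many members. Of the members, 53 had 0 counts in both A549 libraries, against 7 in HCC827 and 3 in H1975. Shares over all genes are not given for the counts in this paragraph, which describe the members only. In A549 with DMSO, 27 of the 37 members of the ZNF91 group lay under 1 CPM, as did 24 of 39 in the group from 51571298 to 53580269 and 15 of 25 in that from 11483427 to 12640098. In H1975 with DMSO these counts were 7, 1 and 1, and in HCC827 with DMSO 8, 1 and 3. ZNF93, which silences LINE-1 elements, had 0 counts in both A549 libraries, 1027 with AL-X and 1960 with DMSO in HCC827, and 1906 and 6498 in H1975.

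By mean CPM per kilobase over the 3 DMSO libraries, the highest members were ZNF114 (36.9), ZNF146 (23.9), ZNF841 (22.9), ZNF787 (13.7) and ZNF317 (12.6). ZNF114 owed its place to H1975, at 13.7 CPM per kilobase with AL-X and 100.35 with DMSO, while HCC827 held 10.7 and 8.87 and A549 0.233 and 1.51. ZNF841 had the same shape, at 24.5 with AL-X and 61.8 with DMSO in H1975, 7.19 and 5.67 in HCC827, and 0.838 and 1.3 in A549. ZNF146, which consists of little more than its fingers, was at 79.9 with AL-X and 30.4 with DMSO in A549, 26.5 and 21.7 in HCC827, and 23.8 and 19.6 in H1975. ZNF536, a neural repressor without KRAB, had 0 counts in every library.

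For the comparison of AL-X with DMSO, 225 of the 240 members passed the filter on low counts and 15 did not. Within a line there was no replicate, so no test was made there. A member was followed if it averaged at least 1 CPM over the 6 libraries, which 218 did, and if it had more than 3 counts in at least 1 of the line's libraries. This left 179 members in A549, 214 in HCC827 and 218 in H1975.

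With AL-X, most members stood higher in HCC827 and lower in H1975 and A549, with no test within a line. In HCC827 53 of 214 members were higher with AL-X by 2-fold or more and 8 lower by as much, where 11.5% of all genes considered were higher and 20.3% lower. In H1975 21 of 218 were higher and 106 lower, against 14.5% and 22.7% of all genes. In A549 36 of 179 were higher and 84 lower, against 27.0% and 36.1% of all genes, and with library totals 19 were higher and 108 lower, against 12.6% and 54.2%. The median log2 fold of the members was 0.55 in HCC827, and in H1975 and A549 it was -0.92 and -0.83.

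**Figure D2:**
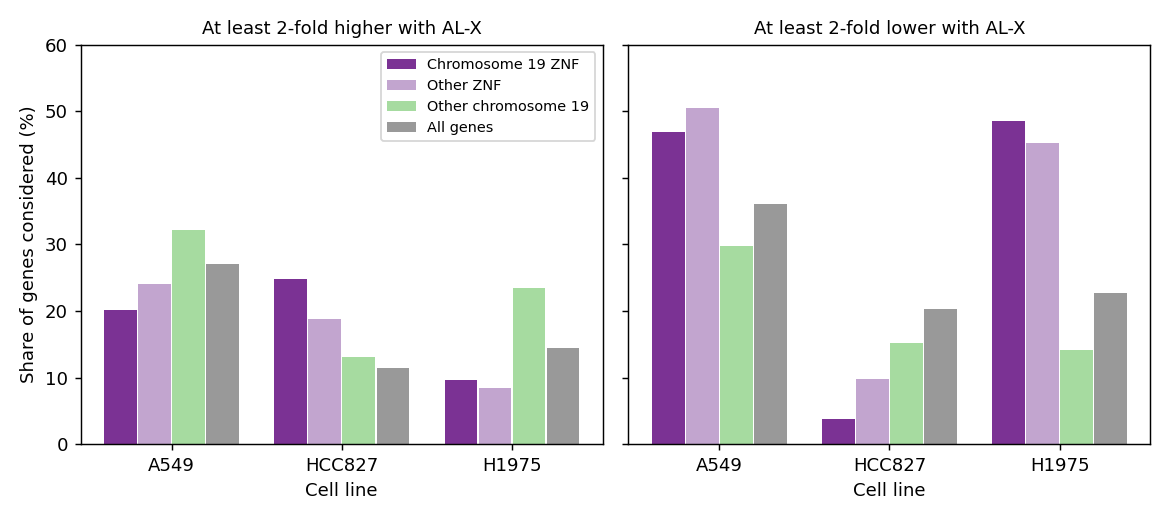
Share of genes considered (%) with a fold of 2 or more, higher (left) or lower (right) with AL-X, in each line, for the chromosome 19 ZNF genes, ZNF genes of other chromosomes, other protein-coding genes of chromosome 19 and all genes. Among the chromosome 19 ZNF genes, A549 had 46.9% lower, HCC827 3.74% and H1975 48.6%.

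The A549 median is less firm than the others. There 22 of the 179 members had 0 counts with AL-X, and with 3 counts in place of the 0 for these, the median was -0.56. With a minimum of 5 CPM for the higher of the paired libraries, the A549 median was 0.11, and 35 of the 98 members left were lower, against 31.8% of all genes. ZNF genes on other chromosomes had the same signs, with 40 of 213 higher and 21 lower in HCC827, 18 of 212 and 96 in H1975, and 50 of 208 and 105 in A549. The medians of other protein-coding genes of chromosome 19 were above 0 in all 3 lines, at 0.08 in HCC827, 0.36 in H1975 and 0.13 in A549, so that their sign differed from the members' in H1975 and A549 only.

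Of the 218 members, 177 had a lower fold in H1975 than in HCC827 (45.8% of all genes considered). Those at least 2-fold lower in both A549 and H1975 numbered 57 (15.5% of all genes), and 9 of them were at least 2-fold higher in HCC827 (1.45% of all genes). ZNF441 and ZNF793, lower in A549 only through the prior count, are among the 57, and ZNF441 is among the 9. Those higher in HCC827 and lower in H1975 numbered 16 (2.41% of all genes), and 0 went the other way (1.32%). Those higher in HCC827 and lower in A549 numbered 14 (3.11%). Between A549 and H1975 such opposite folds were rare, with 4 members higher in A549 and lower in H1975 (1.16%) and 0 the reverse (0.518%). The fold in HCC827 exceeded that in both A549 and H1975 for 121 members (33.7% of all 15071 genes considered). Only 179 of the 218 members and 14387 of all genes had a fold in all 3 lines, and the rest count as not exceeding. Between A549 and H1975 the folds of 179 members correlated with r = 0.680 (Pearson) and 0.635 (Spearman), and those of 14387 genes of all kinds with 0.676 and 0.677. For A549 with HCC827 the members gave 0.442 and 0.393, and all genes 0.332 and 0.287. HCC827 with H1975 gave 0.327 and 0.315 for members, and 0.267 and 0.212 for all genes. Genes are not independent replicates, and within a line all points share 2 libraries.

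Single genes show the split. ZNF554 had 0 counts with AL-X and 255 with DMSO in A549, 827 and 428 in HCC827, and 311 and 1829 in H1975. With 3 counts in place of the 0, it was 47.0-fold lower in A549, where the 95% counting interval ended at -5.25 log2 units. It was 2.24 log2 units lower in H1975 (95% counting interval -2.43 to -2.07) and 1.19 higher in HCC827 (1.02 to 1.36). ZNF224, a repressor of the aldolase A gene, had 443 counts with AL-X and 2971 with DMSO in A549, 3565 and 2638 in HCC827, and 511 and 3210 in H1975. In log2 units, A549 gave a fold of -1.89, HCC827 of 0.67 and H1975 of -2.34. ZNF350 (ZBRK1), which represses damage-response genes together with BRCA1, had folds of -0.56, 1.29 and -0.60 in the same order. More than 10% of the merged exons of ZNF224 overlap those of another gene, as for 58 of the members, and since the strand setting is not given, such counts cannot be told apart from the neighbour's.

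The difference between lines was tested as an interaction, the effect in 1 line against the mean effect in the other lines, with 1 residual degree of freedom. For A549, 2 of 225 members passed (edgeR quasi-likelihood test, adjusted p under 0.05), where 0.0983% of all genes passed as higher and 0.182% as lower. ZNF296 (ENSG00000170684, chromosome 19, 45071500 to 45076588, minus strand) stood 4.65 log2 units higher in A549 than in the other lines (SE 0.94, edgeR adjusted p = 0.0172). ZNF525 stood lower in A549 (edgeR adjusted p = 0.0443). It had 0 counts with AL-X and 57 with DMSO there, 10.5-fold lower with 3 counts in place of the 0. HCC827 held 7446 and 3321, and H1975 6450 and 12992. Neither passed with library totals or limma-voom, and ZNF525 also failed with DESeq2 size factors. At unadjusted p under 0.05, 5 members stood higher and 20 lower in A549 (4.68% and 6.35% of all genes). For HCC827 no member passed by edgeR, where 0.0885% of all genes passed as higher and 0.172% as lower, and for H1975 neither a member nor any other gene passed. At unadjusted p under 0.05, 25 members stood higher and 0 lower in HCC827 (4.81% and 3.38% of all genes), and 0 higher and 1 lower in H1975 (0.462% and 0.698%), while limma-voom also called none in either.

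**Figure D3:**
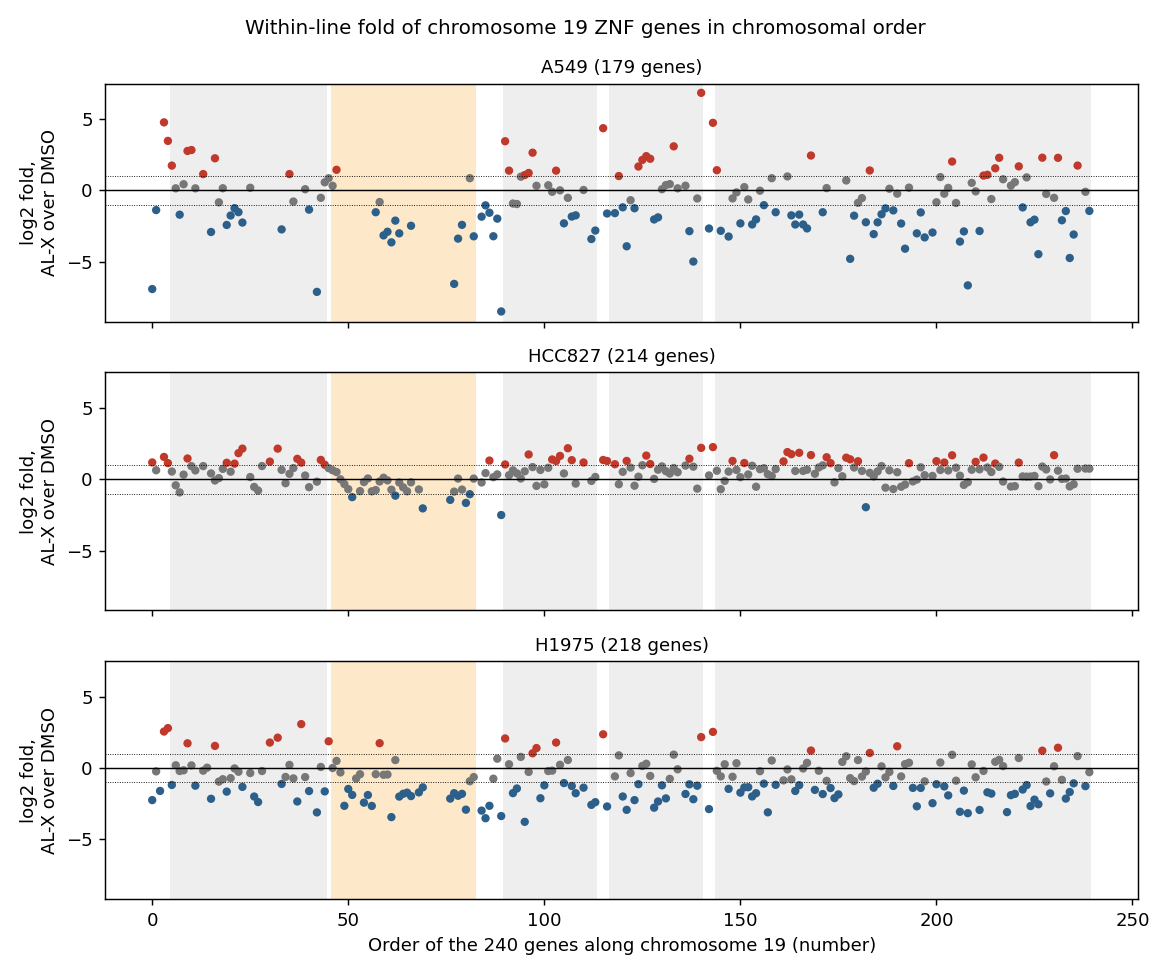
Log2 fold of AL-X over DMSO for each member followed, in its order along chromosome 19, in A549 (179 genes), HCC827 (214) and H1975 (218). Shading marks the 7 groups with 15 or more members, orange the ZNF91 group, and shaded groups that adjoin run together. Red points were at least 2-fold higher and blue points at least 2-fold lower. The orange group is the only shaded stretch without a red point in HCC827.

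Among the 7 groups with 15 or more members, only the ZNF91 group had no higher member in HCC827, which was noticed after the values were seen and was not tested. Of its 29 members followed in HCC827, 0 were higher by 2-fold or more and 6 lower, with a median of -0.69 log2 units, while of the other 185 members 53 were higher and 2 lower, with a median of 0.66. The group's highest fold in HCC827 was 0.64. In H1975 18 of its 30 members were lower and 1 higher, with a median of -1.71 against -0.87 for the other members. In A549 only 15 could be followed, of which 11 were lower and 1 higher, with a median of -2.48 against -0.62. ZNF85, counted among the 11, had 0 counts with AL-X and 4 with DMSO there. It fell short of 2-fold with 3 counts in place of the 0. With library totals the medians of the group and of the other members were -3.38 and -1.59 in A549, -0.56 and 0.79 in HCC827, and -2.12 and -1.27 in H1975. In A549 the order turned, at 0 and -0.18, once members with 3 counts or fewer in both libraries were kept, since these have folds near 0.

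**Figure D4:**
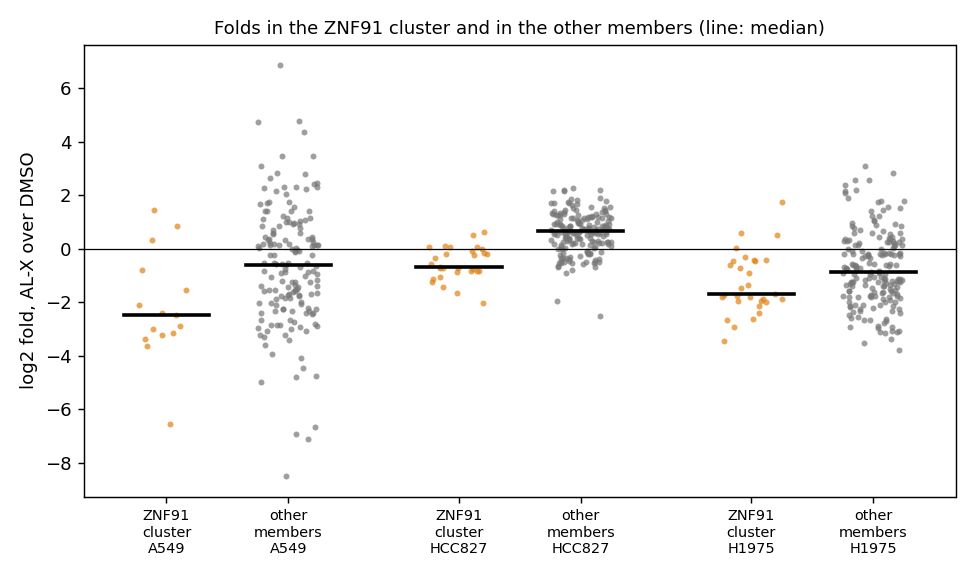
Log2 fold of AL-X over DMSO of the members of the ZNF91 group (orange) and of the other members (grey) in each line, with the median as a bar. The group and the other members had medians of -2.48 and -0.62 in A549, of -0.69 and 0.66 in HCC827, and of -1.71 and -0.87 in H1975.

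ZNF91 itself (ENSG00000167232, chromosome 19, 23304991 to 23395560, minus strand), a repressor of SVA retrotransposons, had 0 counts with AL-X and 20 with DMSO in A549, 3937 and 4485 in HCC827, and 2613 and 12396 in H1975. Its log2 fold was 0.05 in HCC827 and -1.94 in H1975 (95% counting interval -1.999 to -1.876). ZNF681 had 0 counts in both A549 libraries, 330 with AL-X and 1234 with DMSO in HCC827, and 446 and 4176 in H1975, with folds of -1.66 and -2.91. ZNF708 had 11 counts with AL-X and 273 with DMSO in A549, 802 and 1570 in HCC827, and 236 and 3183 in H1975. Its across-line fold was -2.67 (SE 0.87, edgeR adjusted p = 0.198), and it lay among the 4 lowest members of H1975. ZNF676 had 0 counts with AL-X and 8 with DMSO in HCC827, 2.26-fold lower with 3 counts in place of the 0. It had 0 in both A549 libraries, and 988 and 3115 in H1975. The 1 member of the group that was higher in H1975 was ZNF430, at 10367 counts with AL-X and 3803 with DMSO, 1.76 log2 units higher.

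The CCGGAAG heptamer was also set beside the folds. Outside the ZNF91 group the median fold of members with and without CCGGAAG was 0.70 and 0.63 in HCC827 (69 and 96 members) and -0.82 and -0.78 in H1975 (69 and 99). In A549 it was -0.08 for 64 members with it and -0.93 for 84 without. These are medians with no test. Members were also divided by the KRAB motif. In HCC827 the median was 0.59 for 182 members with the motif and 0.44 for 32 without, in H1975 -1.10 for 186 and -0.37 for 32, and in A549 -0.79 for 148 and -1.26 for 31. Across members, the Spearman correlation of fold with exonic length was -0.087 in A549, where all protein-coding genes considered gave -0.299. HCC827 gave 0.016 for members and -0.050 for all, and H1975 -0.054 and -0.289. With the number of fingers, A549, HCC827 and H1975 gave -0.049, 0.065 and -0.078.

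Across the 3 lines taken as replicates, no member passed the test. Of the 225, 0 were called higher and 0 lower (edgeR quasi-likelihood test with Benjamini-Hochberg adjustment over 20344 genes, adjusted p under 0.05), where 0.0983% of all genes were called higher and 0.157% lower. At unadjusted p under 0.05, 16 members were higher and 17 lower, against 5.48% and 10.2% of all genes. DESeq2 called 9 of 224 members higher and 7 lower, against 3.07% and 7.08% of all genes. With limma-voom 6 of 225 were called higher and 0 lower, against 1.59% and 1.66%. The median log2 fold was -0.43 over the members and -0.27 over all genes tested.

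A small set stood higher with AL-X in every line. Of 218 members, 9 were at least 2-fold higher in all 3 lines (2.46% of all genes considered) and 1 was lower (5.75%). The 9 were ZNF473, ZNF296, ZNF57, ZNF317, ZNF574, ZNF420, ZNF468, ZNF77 and ZNF565. None of the 9 passed the edgeR test across lines after adjustment. With DESeq2, which called 3.07% of all genes higher, all but ZNF420 passed. The DESeq2 adjusted p was 8.78e-05 for ZNF473, 0.0158 for ZNF468 and 0.0539 for ZNF420. With limma-voom, which called 1.59% of all genes higher, ZNF473, ZNF296, ZNF57, ZNF317, ZNF574 and ZNF77 passed, and ZNF420, ZNF468 and ZNF565 did not. RefSeq promoters were at hand for 8 of the 9, and none of these held CCGGAAG while 7 held GGGCGG. The shares were 44.5% and 69.9% among all member promoters, and 10.3% and 45.0% among all promoters. Of 50 promoters of members at least 2-fold lower in both A549 and H1975, 21 held CCGGAAG (42%) and 33 held GGGCGG (66%). A link between motif and direction was not tested.

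ZNF473 (ENSG00000142528, chromosome 19, 50025714 to 50053414, plus strand), a component of the U7 particle that cuts the 3′ ends of replication-dependent histone mRNAs, had 402 CPM with AL-X and 14.9 with DMSO in A549, 49.5 and 10.3 in HCC827, and 64.8 and 11.1 in H1975. All 3 AL-X values lay above all 3 DMSO values. Its across-line fold was 3.15 log2 units (SE 0.62, edgeR adjusted p = 0.0650), and it is the member closest to the threshold. Leaving out A549 or HCC827 brought it under the threshold (edgeR adjusted p = 0.0321 and 0.04998), with folds of 2.45 and 3.61, while without H1975 it was 3.51 (edgeR adjusted p = 0.101).

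ZNF296, a finger protein without the KRAB motif, had 291 CPM with AL-X and 2.49 with DMSO in A549, 5.14 and 1.10 in HCC827, and 7.56 and 1.65 in H1975. All 3 AL-X values again lay above the DMSO values, and A549 stood far from the other lines. Its across-line fold was 3.49 (SE 0.90, edgeR adjusted p = 0.133), and 4.55 without H1975 (edgeR adjusted p = 0.0155). Without A549 it was 2.26 (edgeR adjusted p = 0.496), and without HCC827 4.50 (0.0888). ZNF574 (ENSG00000105732, 42068477 to 42081549) had 688 CPM with AL-X and 33.2 with DMSO in A549, 45.5 and 17.7 in HCC827, and 48.8 and 9.37 in H1975, with an across-line fold of 2.68 (SE 0.67, edgeR adjusted p = 0.121), and of 3.34 without HCC827 (edgeR adjusted p = 0.04998). Without A549 it was 1.92 (edgeR adjusted p = 0.172), and without H1975 2.86 (0.404). In A549 with AL-X, ZNF574 alone made up 19.9% of all member counts, and the 5 most abundant members 57.9%, where the 5 most abundant took 21.3% with DMSO. The summed CPM of the family in A549 was 2.34 times as high with AL-X on the TMM scale, and its share of all counts 1.18 times as high, while more of its members were lower than higher.

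ZNF57 (ENSG00000171970, 2900898 to 2918476) had 59.8 CPM with AL-X and 2.16 with DMSO in A549, 11.9 and 3.98 in HCC827, and 51.0 and 8.56 in H1975. Its across-line fold was 2.94 (SE 0.72, edgeR adjusted p = 0.120). In A549, HCC827 and H1975, its neighbour ZNF77 had folds of 3.48, 1.14 and 2.81, and ZNF565 of 3.46, 1.04 and 2.09. Exons of other genes overlap 13.15% of the merged exons of ZNF57 and 11.61% of those of ZNF565. ZNF146 lies within the span of ZNF565 on the other strand. With the strand setting not given, the counts of ZNF57 and ZNF565 may hold reads of such neighbours. Per kilobase, ZNF317 was the highest of the 9 in each DMSO library, at 8.27 CPM in A549, 16.2 in HCC827 and 13.4 in H1975. Without that division it had 287 CPM with AL-X and 41.9 with DMSO in A549, 227 and 82.3 in HCC827, and 228 and 68.0 in H1975 (across-line fold 1.99, SE 0.53, edgeR adjusted p = 0.146). ZNF420, which restrains p53-driven apoptosis, had folds of 1.39, 1.29 and 1.80. ZNF468 had folds of 2.45, 1.70 and 1.24, but nearly all of its transcript sequence (99.2% of stretches of 100 bases) recurs in transcripts annotated to ZNF320, and its counts are uncertain.

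**Figure D5:**
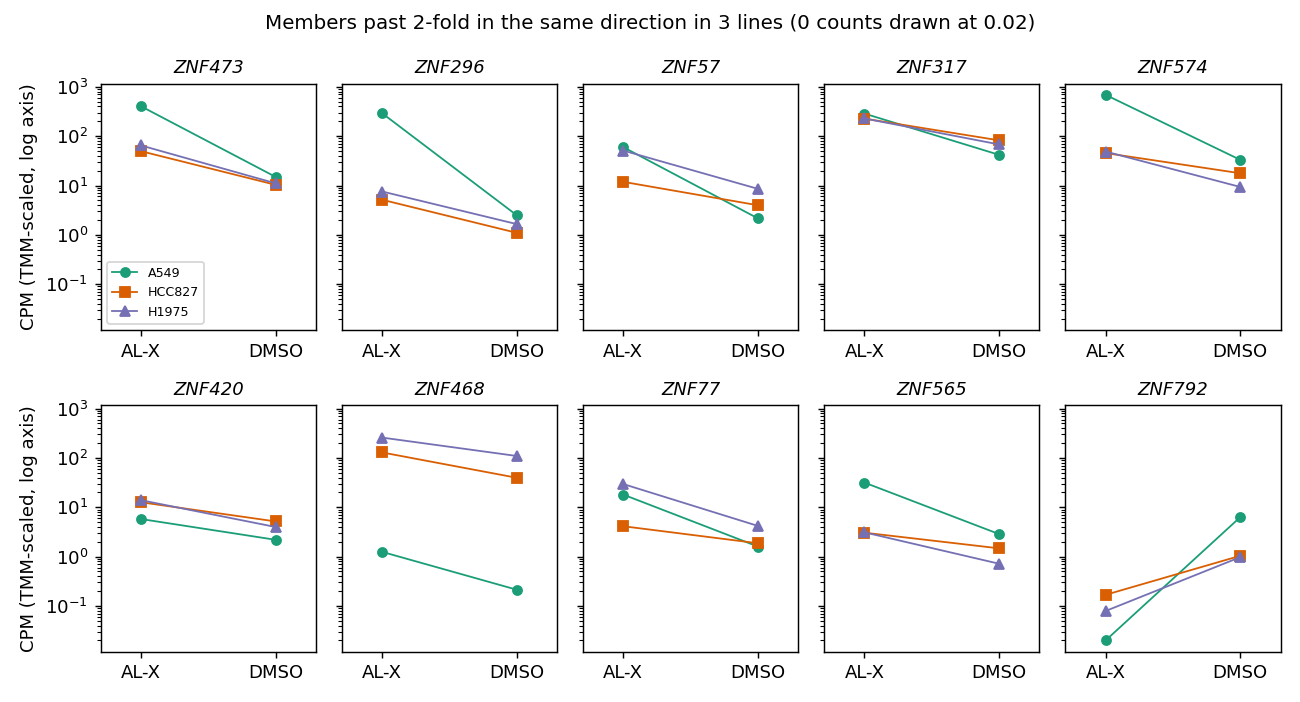
TMM-scaled CPM (log axis) with AL-X (left) and DMSO (right) in each line for the 9 members at least 2-fold higher in all 3 lines and for ZNF792, the only member at least 2-fold lower in all 3, whose 0 counts in A549 with AL-X are drawn at the foot of the axis. ZNF473 lay between 49.5 and 402 CPM with AL-X, and between 10.3 and 14.9 with DMSO.

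ZNF792 was the member lower in every line. It had 0 counts with AL-X and 764 with DMSO in A549, 141-fold lower with 3 counts in place of the 0. HCC827 held 21 and 153, and H1975 8 and 122. All 3 AL-X values lay below the DMSO values. Its fold was -2.51 in HCC827 (95% counting interval -3.36 to -1.96) and -3.36 in H1975 (-4.87 to -2.60). Across lines its adjusted p was 0.213 by edgeR, 0.0033 by DESeq2 and 0.0561 by limma-voom.

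The 4 lowest fitted folds of A549 were those of ZNF792, ZNF564, ZNF554 and ZNF772, all at 0 counts with AL-X, so that their order rests on the DMSO counts and the prior count. With 3 counts in place of the 0, ZNF564 (0 counts with AL-X and 293 with DMSO) and ZNF772 (0 and 213) were 54.0-fold and 39.3-fold lower in A549. Their folds were -3.10 and -3.16 in H1975, and -0.16 and -0.20 in HCC827. ZNF564 shares 82.7% of its sequence with another annotated gene, so its counts are uncertain. In HCC827 the highest members after ZNF473 and ZNF296 were ZNF569 (1780 counts with AL-X and 461 with DMSO, fold 2.18) and ZNF441 (3234 and 855, 2.16). ZNF569 had folds of -0.52 in A549 and 0.57 in H1975, and ZNF441 was at 152 counts with AL-X and 471 with DMSO in H1975. ZNF331, an imprinted member, was 1.96 log2 units lower in HCC827 and 2.23 in A549, but only 0.23 in H1975.

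In H1975 ZNF442 led the members that were higher, at 606 counts with AL-X and 86 with DMSO (fold 3.09), with 194 and 100 in HCC827 and 0 in both A549 libraries. ZNF382, a repressor known as a tumour suppressor, was the lowest, at 50 and 870 (fold -3.77), while HCC827 held 1098 and 876. ZNF302 followed at 149 and 2130 (-3.51), against 936 and 3496 in A549 and 2418 and 2111 in HCC827. ZNF649, a repressor of serum response and AP-1 reporters, differed little, with folds of -0.11 in HCC827 and 0.28 in H1975, and had 0 counts with AL-X and 3 with DMSO in A549.

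ZNF274 recruits SETDB1 to the 3′ ends of zinc finger genes, its own family included. It had 79.5 CPM with AL-X and 16.2 with DMSO in A549, 81.8 and 53.7 in HCC827, and 246 and 91.0 in H1975. It was higher with AL-X in each line, by 2.29, 0.61 and 1.43 log2 units, with an across-line fold of 1.44 (SE 0.51, edgeR adjusted p = 0.225). Members outside the KRAB class were mixed. ZNF444, a SCAN-domain protein, had folds of -2.32, -0.52 and -0.58 in A549, HCC827 and H1975, ZNF579 had -3.06, 0.20 and -1.37, and ZNF428 had 1.01, -0.35 and 0.90. ZNF787 had -0.22, 0.50 and 1.54, and ZNF146 1.39, 0.29 and 0.28.

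Of 30 genes that carry out or maintain KRAB repression, 0 passed the across-line test in either direction, with 1 higher and 8 lower at unadjusted p under 0.05 (edgeR), against 5.48% and 10.2% of all genes. By line, their median fold was -0.60 for HCC827, -0.27 for H1975 and 0.04 for A549, where all genes had -0.09, -0.07 and -0.24. TRIM28, the corepressor that KRAB domains bind, had 2455 CPM with AL-X and 368 with DMSO in A549, 498 and 419 in HCC827, and 1996 and 657 in H1975 (across-line fold 1.53, SE 0.78, edgeR adjusted p = 0.357). SETDB1 was at 72.8 and 49.1, 29.8 and 45.8, and 25.9 and 50.7 CPM in the same order (fold -0.35, SE 0.50, edgeR adjusted p = 0.744). TRIM28 had the second highest across-line fold of the list. Apart from it, the ends of the list were the deacetylase SIRT1 (2.21, SE 0.62) and DAXX (1.10, SE 0.57), which loads histone H3.3, and the DNA methyltransferases DNMT3B (-2.40, SE 0.93) and DNMT3A (-2.04, SE 0.75). The adjusted p of these 4 lay between 0.153 and 0.364.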

How the data were processed

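RNA came from Trizol extracts and was made into SureSelect mRNA libraries, per the labels' protocols. The submitters' processing notes name bcl2fastq 2.20 and GRCh38. Not given in the sources used here: aligner, counter, annotation, strand, molecular barcodes. Raw counts were deposited by the authors per Ensembl gene, 60671 genes in 6 columns.

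Genes were annotated with GENCODE release 29, whose coordinates are printed. HKR1, now named ZNF875, is not a member under that release. Lines were paired by the cell line tag, so line was a block. All genes were fitted with edgeR 4.0.16 in R 4.3.3 (TMM, filterByExpr, robust quasi-likelihood test, Benjamini-Hochberg adjustment). An SE is the fold divided by the root of its F value. The labels do not say how many cultures a library holds, and p-values measure the spread between lines. Within a line, folds used TMM-scaled CPM with a prior count of 2. Intervals are exact binomial 95% intervals of the count ratio and cover counting error only. Leaving out genes at 3 counts or fewer in both libraries of a line was decided after the data were seen. Fingers were counted in translated GENCODE coding sequences, and sequences are RefSeq's.

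Alternatives used DESeq2 1.42.0, limma 3.58.1, other scalings and filters, and lines left out. In simulated counts over 19212 genes, the across-line test recovered 1.52%, 29.9% and 84.8% of genes changed by 1, 2 and 4 log2 units. It also called 9 genes that had not been changed. The interaction test on 19162 genes recovered 0%, 0% and 7.58%.

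Named genes were those past either test, the 4 highest and 4 lowest per line, up to 6 at 2-fold in all 3 lines, the 5 highest in DMSO, 13 fixed genes, and, from the repression list, TRIM28, SETDB1 and 2 at either end. ZNF430, ZNF565, ZNF468 and the ZNF91 group were singled out after values were seen. Members and lists were chosen with earlier results of these data known.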

Additional observations from a re-analysis of the deposited data

Results flagged for a closer look

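The response of 2 members in A549 differed from that in the other lines by the interaction test of edgeR, with 1 residual degree of freedom. ZNF296 differed by 4.65 log2 units (adjusted p = 0.0172) and ZNF525 by -9.10 (adjusted p = 0.0443). The value for ZNF525 is a fitted one that rests on 0 counts in A549 with AL-X, and is no bound. The members' median fold had opposite signs in HCC827 (0.55) and H1975 (-0.92). That difference of medians was not tested, since each line has 1 library per treatment.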

How the results depend on the processing

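Of the 240 members, 149 had 10 or more counts in every library, and the across-line test had 2 residual degrees of freedom. The across-line count was 0 higher and 0 lower with edgeR under every scaling and filter tried, and also without the replicate block. With library totals, without a filter and without the block, 0 of all genes passed in either direction, so these settings say nothing particular to the members. With mitochondrially encoded genes left out before scaling, 0.0395% of all genes passed as higher and 0.0198% as lower. DESeq2 size factors gave 0.0983% and 0.157%, and 1 CPM in 3 libraries 0.0973% and 0.195%. Without the block, 9 and 1 members reached unadjusted p under 0.05 (edgeR), against 16 and 17 with it. Calls by DESeq2 were 9 higher and 7 lower (3.07% and 7.08% of all genes), those by limma-voom 6 and 0 (1.59% and 1.66%). Leaving out each line gave 1 to 2 higher and 0 lower, where 0.131% to 0.613% of all genes were called higher and 0.275% to 0.369% lower. Within A549, library totals gave 19 higher (12.6% of all genes) and a median of -1.68. The rule of 5 CPM in the higher library gave 35 of 98 lower (31.8% of all genes) and a median of 0.11 there, which reversed its sign, as did its difference from all genes (0.1251) and the median without the ZNF91 group (0.1226). It also gave 4 of 180 lower in HCC827 (17.3% of all genes) and turned the median of all genes in H1975 to 0.0627. Keeping members at 3 counts or fewer in both libraries gave an A549 median of -0.0771 (0.1123 above that of all genes), and leaving out the 33 members that share sequence with other genes gave -0.68. The last-named pair of choices was made after the data were seen. Library totals moved the median to 0.68 in HCC827 and -1.33 in H1975, and that of all genes in HCC827 to 0.044. The interaction test for A549 called 1 member with DESeq2 size factors and 0 with library totals or limma-voom. The cause of these changes was not tested.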
